A study of Mus musculus with 18 samples.

Results

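Hearts of wild-type C57BL/6 mouse embryos were sampled at 5 stages between embryonic day 9.5 (E9.5) and E16.5, and the question here was which transcripts stood higher or lower at E12.5 than at both the stage before and the stage after. The comparison used 11 of the 18 RNA sequencing libraries, namely the 4 of E12.5, the 4 of E10.5 and the 3 of E14.5. All groups shared strain, genotype and tissue, none carried a treatment, and every library was labelled as pooled male and female. Whether litters or pools differed between libraries of 1 stage is not labelled, and p-values therefore measure only the spread between the libraries, which may be technical. For each gene, 1 contrast set E12.5 against the mean of E10.5 and E14.5 on the log2 scale. E12.5 lies midway between its flanks in time, so a gene that changed at a constant rate on that scale has a contrast of 0.

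Embryonic blood is made in waves. Primitive red cells arise in the yolk sac, enter the circulation while still nucleated and carry embryonic globins, and definitive red cells from the fetal liver, which carry adult globins, later replace them. Over the same days the endocardial cushions are remodelled into valves and septa, the epicardium supplies fibroblasts and mural cells, and the walls of the great vessels begin to lay down elastic matrix. A dissected heart holds the blood in its chambers, so its RNA is a mixture of muscle, connective tissue, endothelium and blood.

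Transcripts that define heart muscle were abundant and the liver and lung markers Alb and Sftpc were near 0. In CPM, counts scaled to the size of the library, cardiac troponin T (Tnnt2) lay between 2429 and 7434 in the 11 libraries and the ventricular myosin Myh7 between 4785 and 6425, while Alb was at most 0.134 and Sftpc at most 0.195. The 11 libraries held 30744015 to 45646538 counts each, so that 0 counts of a gene allow up to 3 of the total, or 0.0657 to 0.0976 CPM. From earlier results of these data, 5 of the 18 libraries were known to lack transcripts typical of activated macrophages, and 3 of them are used here, E10.5 replicates 1 and 2 and E12.5 replicate 4. The summed level of those 8 transcripts was 0.603 to 2.75 CPM in these 3 and 346 to 689 CPM in the other 8. Such libraries made up 25% of the E12.5 group, 50% of that of E10.5 and 0% of that of E14.5, a mean of 25% over the flanks. The shares are thus equal in the contrast but not in a comparison of E12.5 with 1 flank.

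Transient expression was mostly upward. Of 18885 genes tested, 1200 (6.35%) were higher at E12.5 than the mean of the flanks and 298 (1.58%) were lower, by edgeR's quasi-likelihood test at a Benjamini-Hochberg adjusted p under 0.05. A gene was called at a peak when it also passed against each flank on its own, and 292 genes (1.55%) met this rule. Only 44 genes (0.233%) were at a dip, the same rule in the lower direction. These shares over all genes are the comparison for each count of list members below. With libraries scaled by their totals alone, 944 genes were higher and 567 lower, so the share of higher calls was 62.5% in place of 80.1%, while 73 genes were at a dip. In plain CPM ranges, with no test, every E12.5 library lay above every library of both flanks for 405 genes (2.14%) and below them for 130 (0.688%).

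Most genes with a positive contrast did not meet the peak rule, often for lack of a call against 1 flank. Of the 1200, 661 were higher than at E10.5 with no call against E14.5, 126 were higher than at E10.5 and lower than at E14.5, 118 were higher than at E14.5 with no call against E10.5, and 3 were lower than at E10.5 and higher than at E14.5. Among the 298 with a negative contrast, 177 were lower than at E10.5 with no call against E14.5. The matrix protein Spon2 shows the commonest shape. It read 10.8 to 14.1 CPM at E10.5, 73.9 to 79.2 at E12.5 and 72.2 to 75.6 at E14.5, a step up to a plateau, with a contrast of 1.30 ± 0.08 (log2, SE). The metalloprotease Adamts8 had the same shape and a contrast of 1.62 ± 0.11. The elastic fibre cross-linking enzyme Lox went on rising, from 2.86 to 4.79 CPM at E10.5 to 54.1 to 58.1 at E12.5 and 64.1 to 76.7 at E14.5, where it also passed the test (adjusted p = 0.042, edgeR). Downward bends were seen for Hey1, a Notch target, for the adhesion molecule Cadm1 and for Tmem56, with contrasts of -0.52, -0.53 and -1.07 and no call against E14.5.

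**Figure D1:**
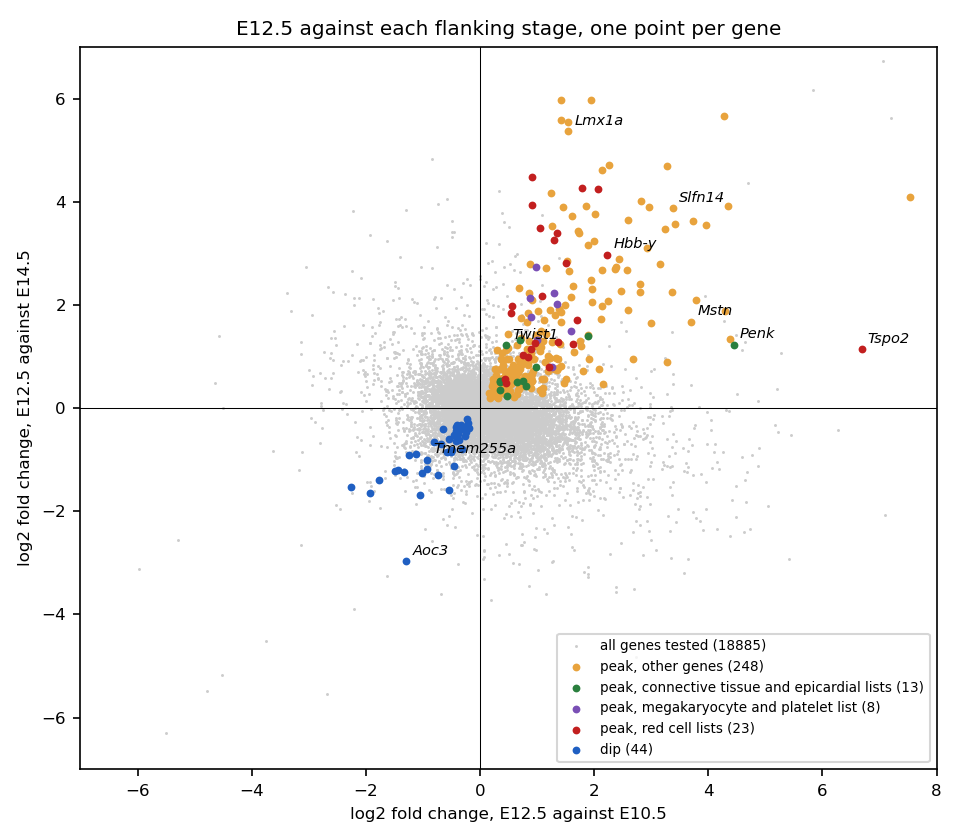
Log2 fold change of E12.5 against E10.5 (horizontal axis) and against E14.5 (vertical axis) for 18885 genes, 1 grey point per gene, of which 2 lie outside the axes. Coloured points are the 292 genes at a peak, upper right, split by gene list, and the 44 at a dip, lower left.

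Red cell transcripts were often at a peak. Of 69 red cell genes tested, in lists for globins, haem and iron, membrane and cytoskeleton, and erythroid regulators, 45 were higher at E12.5 than the mean of the flanks, 1 was lower, and 23 were at a peak, beside 6.35, 1.58 and 1.55% of all genes. Their median contrast was 0.98, and that of all genes tested 0.01. Globin transcripts took 1.19 ± 0.331% of all counts at E10.5 (SD, n = 4), 3.52 ± 1.47% at E12.5 (n = 4) and 1.04 ± 0.554% at E14.5 (n = 3). The lowest E12.5 library, replicate 4 at 1.62%, was level with the highest at E14.5, also 1.62%. In bulk RNA, more red cells and more RNA per red cell cannot be told apart.

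Of the 4 genes in the embryonic globin list, Hbb-y met the peak rule. It is the beta-like chain of primitive red cells, on chromosome 7 (103851749 to 103853216). It read 3560, 3651, 5467 and 4741 CPM at E10.5, 27785, 17890, 26135 and 9680 at E12.5, and 4524, 2642 and 612 at E14.5. Every E12.5 library was above every flanking library, by 4.68-fold from E10.5 and 7.86-fold from E14.5 in the fit (contrast 2.60 ± 0.50, adjusted p = 0.0044, edgeR). Without the 5 libraries that stand apart its contrast was 2.72 with an adjusted p of 0.0499 (edgeR), and it no longer passed against both flanks. Hba-x, the alpha-like embryonic chain, read 2296 to 4637 CPM at E10.5, 2884 to 12332 at E12.5 and 158 to 802 at E14.5. It overlapped E10.5 and did not pass against it (adjusted p = 0.12, edgeR), though its contrast did at 2.42. Hbb-bh1 had its highest stage mean at E10.5, with 2520 to 4290 CPM at E10.5, 743 to 4289 at E12.5 and 18.6 to 99.6 at E14.5. Its contrast of 1.99 had an adjusted p of 0.045 (edgeR), which was 0.27 without E12.5 replicate 3, the E12.5 library with the highest level. Hbb-bh2 was low throughout, from 0.264 to 0.795 CPM at E12.5.

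Adult globins had large contrasts but no peak. Hba-a1 and Hba-a2 were 6.66-fold and 9.48-fold higher than at E10.5 and did not pass against E14.5 (adjusted p = 0.44 and 0.12, edgeR). Hbb-bt was higher than at E10.5 by 4.04 on the log2 scale, and against E14.5 its log2 difference was -0.43, which did not pass. Hbb-bs went from 4.49 to 44.1 CPM at E10.5 to 189 to 641 at E12.5 and 1663 to 3495 at E14.5, and its contrast of 0.94 did not pass (adjusted p = 0.46, edgeR). Embryonic genes made up 93.0% of all globin counts at E10.5, 82.0% in the E12.5 group, 28.8% in that of E14.5 and 0.674% in the last stage sampled. Reads of near-identical globin pairs may have been split or lost in counting, so the level of each adult gene is uncertain.

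**Figure D2:**
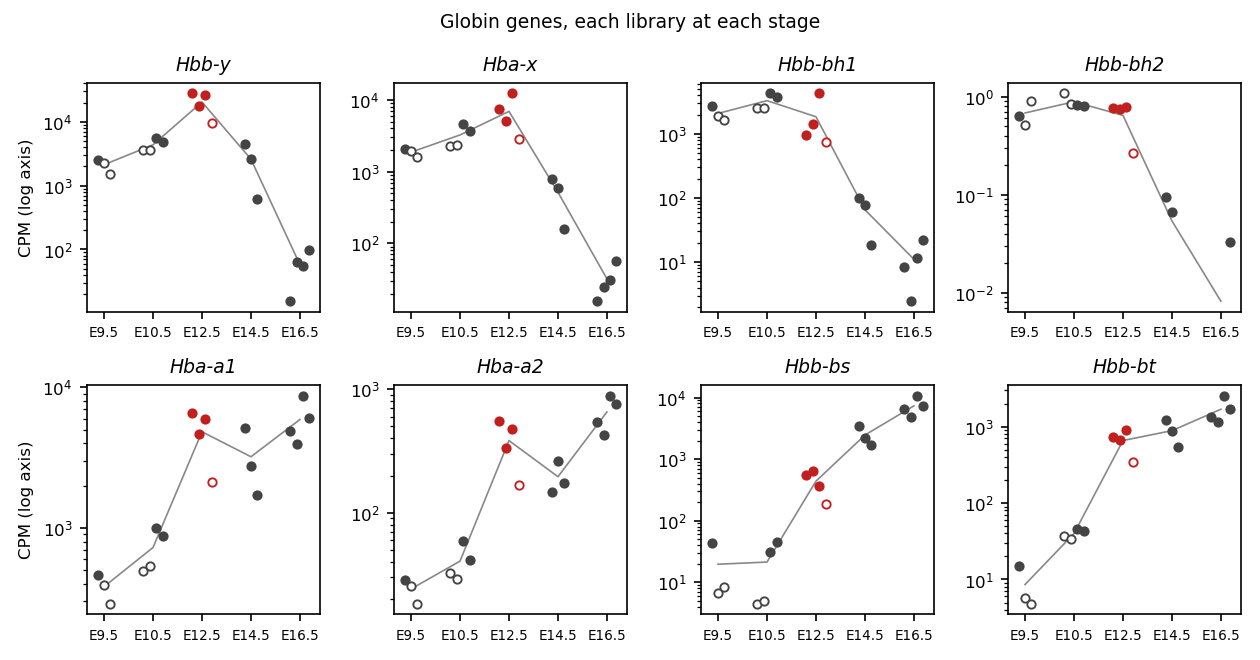
CPM of the 8 globin genes (log axis) in each library at each stage. Points are libraries, E12.5 in red, open where the library is one of the 5 that stand apart, and lines join stage means. Libraries at 0 are not drawn for Hbb-bh2. Embryonic genes (upper row) were lower at E14.5 than at E12.5 and adult beta genes were above their E10.5 levels from E12.5 on.

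The promoters of a few red cell genes are shown as examples, all taken from those at a peak that hold the GATA motif described here. Windows without it, such as those of Blvrb and Bpgm, are not shown. Of the 23 at a peak, 18 had a window in the RefSeq promoter table (GRCm38.p6). GATA1, the main erythroid transcription factor, binds GATA motifs, searched here as AGATAA or AGATAG, or either of these with T as the first letter, on both strands in the 250 bases before the first listed gene start. At least 1 match was found in 10 of the 18 genes, in 27.1% of 27025 genes with a window, in 24.8% of the 218 matched genes of the whole peak class, and in 0 of 7 matched peak genes of the connective tissue and epicardial lists. The motif CCNCNCCC, which holds the CACCC-type site of KLF1, was in 9 of the 18 and in 45.6% of all windows. It was in 65.1% of the 218 matched genes of the whole peak class and in 4 of the 7 connective tissue and epicardial ones. In the platelet list, 3 of the 8 peak genes held a GATA match and 4 held CCNCNCCC. A match describes the letters and not a bound site. The stretches below run 5′ to 3′ on the strand of the gene, at chr7:103853208-103853457 (minus) for Hbb-y, chr6:41704326-41704575 (minus) for Kel, chr2:121036878-121037127 (minus) for Epb42 and chrX:150547167-150547416 (plus) for Alas2. Capitals mark the GATA motif or its reverse complement, which begins at position -162 from the gene start in Hbb-y, -56 and -19 in Kel, -226 in Epb42 and -86 in Alas2.
Hbb-y: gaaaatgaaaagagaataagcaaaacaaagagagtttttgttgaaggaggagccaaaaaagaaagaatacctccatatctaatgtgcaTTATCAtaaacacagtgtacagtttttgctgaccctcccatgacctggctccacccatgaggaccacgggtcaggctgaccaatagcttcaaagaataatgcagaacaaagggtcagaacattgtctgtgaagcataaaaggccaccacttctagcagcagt
Kel: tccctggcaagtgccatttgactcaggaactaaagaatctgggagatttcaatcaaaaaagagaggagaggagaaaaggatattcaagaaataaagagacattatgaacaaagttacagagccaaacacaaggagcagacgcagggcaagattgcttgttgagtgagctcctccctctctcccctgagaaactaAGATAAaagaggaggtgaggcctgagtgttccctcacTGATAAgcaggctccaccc
Epb42: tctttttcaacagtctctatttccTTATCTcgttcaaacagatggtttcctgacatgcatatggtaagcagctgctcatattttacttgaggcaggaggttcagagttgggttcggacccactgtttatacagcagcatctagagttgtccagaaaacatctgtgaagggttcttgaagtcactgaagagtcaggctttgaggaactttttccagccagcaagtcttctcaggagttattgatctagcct
Alas2: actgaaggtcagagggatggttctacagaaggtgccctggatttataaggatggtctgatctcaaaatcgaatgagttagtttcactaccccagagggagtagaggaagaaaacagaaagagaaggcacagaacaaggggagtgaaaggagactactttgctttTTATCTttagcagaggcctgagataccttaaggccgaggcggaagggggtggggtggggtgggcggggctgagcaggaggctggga

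Membrane genes gave 8 peaks among 21 tested, with 15 higher in the contrast, beside 1.55 and 6.35% of all genes. Kel, the Kell blood group endopeptidase (chromosome 6, 41686330 to 41704339), read 25.8, 27.7, 31.9 and 25 CPM at E10.5, 130, 78.5, 126 and 46.1 at E12.5, and 7.77, 4.16 and 2.71 at E14.5. The groups did not overlap, and the contrast was 3.03 ± 0.29 (adjusted p = 1.2e-05, edgeR). Band 3, the anion exchanger Slc4a1, read 269 to 369 CPM at E10.5, 371 to 931 at E12.5 and 43.7 to 75.8 at E14.5. Its lowest E12.5 library, replicate 4, was just above the highest at E10.5, and the gene was at a peak in 21 of 22 alternative settings, all but the one without the 5 libraries that stand apart. Epb42, protein 4.2 of the membrane skeleton, was 1.88-fold above E10.5 and 15.3-fold above E14.5. Ermap, an erythroblast membrane protein, was 1.87-fold and 22.2-fold higher, with 1 E12.5 library, replicate 4 at 47.3 CPM, inside the range of E10.5. Xk, the partner of Kell, and the Rhesus protein Rhd had contrasts of 1.63 and 2.37. The Rhesus-associated glycoprotein Rhag was 18.6-fold higher than at E14.5 but did not pass against E10.5 (adjusted p = 0.51, edgeR).

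Of 20 haem and iron genes, 5 were at a peak, 9 were higher in the contrast and 1 was lower. Over all genes the shares were 1.55, 6.35 and 1.58%. Alas2 catalyses the first step of haem synthesis in red cells and read 95.5 to 133 CPM at E10.5, 333, 247, 411 and 136 at E12.5, and 81.2 to 161 at E14.5. Replicate 4 of E12.5 lay inside the range of E14.5, and Alas2 was at a peak in 16 of 22 alternatives. Fech, which inserts the iron at the last step, did not overlap either flank and had a contrast of 0.89 ± 0.12. Blvrb, a biliverdin reductase, and Fth1, the ferritin heavy chain, had contrasts of 1.12 and 1.0, and Fth1 was at a peak in 11 of 22 alternatives. Tspo2, a membrane protein of erythroblasts, had 0 to 3 counts in each E10.5 library, 90 to 260 at E12.5 and 44 to 117 at E14.5. Its fold from E10.5 is not given at so few counts. Against the direction of its list, the transferrin receptor Tfrc was lower in the contrast by -0.74, with 244 to 284 CPM at E10.5, 86.7 to 153 at E12.5 and 91.9 to 158 at E14.5.

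Among 20 erythroid regulators, 9 were at a peak and 14 were higher in the contrast, beside 1.55 and 6.35% of all genes. Trim58, a ubiquitin ligase of late erythroblasts, read 0.630 to 1.52 CPM at E10.5, 5.26, 5.0, 5.56 and 3.56 at E12.5, and 0.179 to 0.355 at E14.5, with no overlap. Bpgm makes the metabolite that lowers the oxygen affinity of haemoglobin and was 3.24-fold and 3.29-fold above its flanks (contrast 1.71 ± 0.18). The ubiquitin enzyme Ube2o, which clears proteins from maturing red cells, had a contrast of 0.92. Of the transcription factors, Nfe2 and Tal1 were at a peak at 2.28 and 1.27, Tal1 in 14 of 22 alternatives. Klf1 and Gata1 passed the contrast, at 1.61 and 1.19, but not against E10.5, where their log2 differences were -0.73 and -0.75. For Klf1, E12.5 replicate 3 read 31.3 CPM and the other E12.5 libraries 6.76 to 9.62, and without that library the contrast of Klf1 was 0.84 (adjusted p = 0.002, edgeR). The contrast of Gata1 no longer passed without it, at 0.66 (adjusted p = 0.056, edgeR).

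Of the 292 genes at a peak, 236 (80.8%) were in none of the lists, beside 95.7% of all genes tested. The lists are short, with 71 genes in those for red cells, so absence from them does not place a gene outside the blood. Slfn14, a schlafen-family endoribonuclease on chromosome 11 (83275110 to 83286726), read 1.17, 1.20, 1.48 and 1.15 CPM at E10.5, 13.2, 13, 17.8 and 8.18 at E12.5, and 1.21, 0.783 and 0.654 at E14.5. It stood 10.4-fold above E10.5 and 14.7-fold above E14.5 (contrast 3.63 ± 0.21, adjusted p = 2.6e-09, edgeR). Hsd3b6, a 3-beta-hydroxysteroid dehydrogenase (chromosome 3, 98805504 to 98814443), read 19.2, 14.9, 21.7 and 22.3 CPM, then 237, 180, 215 and 109, then 30.8, 14.8 and 4.17. Related Hsd3b genes lie close in sequence, so its reads may be shared with them.

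Tent5c, a poly(A) polymerase, was 10.3-fold and 4.79-fold above its flanks. The formin-family gene Fhdc1 went from 1.55 to 1.71 CPM at E10.5 to 9.0 to 21.2 at E12.5 and 1.40 to 2.48 at E14.5. Lmx1a, a LIM homeodomain transcription factor, read 7.34 to 9.67 CPM, then 20.3, 17.6, 44.9 and 13.2, then 0.125 to 0.972, and was at a peak in 20 of 22 alternatives. Pdzk1ip1 and Ccdc92b had contrasts of 3.02 and 2.88 without overlap. Trib3, a stress-induced pseudokinase and a member of the heat shock and unfolded protein list, was 4.40-fold and 3.95-fold above its flanks. Replicate 4 of E12.5 was low for these genes as well, at 0.527 times the mean of the other 3 for Tent5c, 0.546 for Fhdc1, 0.477 for Lmx1a, 0.347 for Pdzk1ip1, 0.530 for Ccdc92b, 0.507 for Trib3, 0.558 for Slfn14 and 0.517 for Hsd3b6. Named after their values were seen, the kinase Dyrk3 and the pleckstrin Plek2 had contrasts of 2.62 and 2.57.

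**Figure D3:**
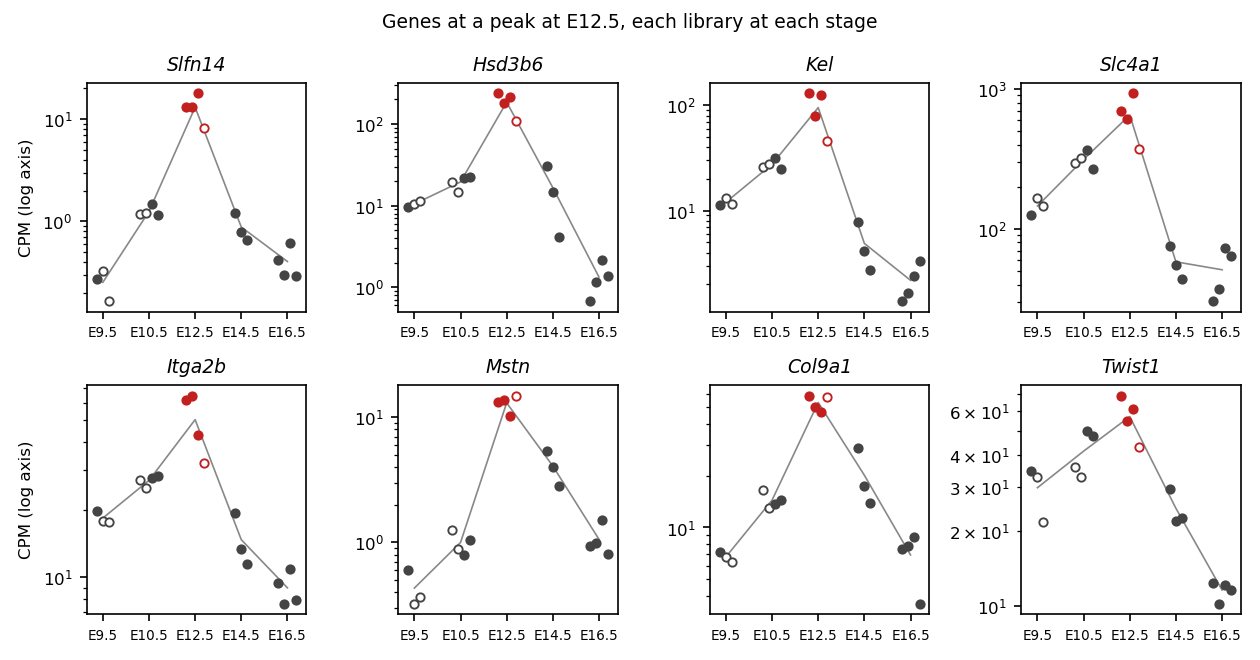
CPM (log axis) of 8 genes at a peak in each library at each stage, E12.5 in red, open points for the 5 libraries that stand apart, lines through stage means. For Slfn14, Hsd3b6, Kel, Slc4a1 and Itga2b the open E12.5 point, replicate 4, is the lowest of the 4, and for Mstn it is the highest. Twist1 is the one gene drawn whose E12.5 libraries overlap a flank.

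Megakaryocytes and platelets, the clotting lineage of the blood, gave 8 peaks and 12 positive contrasts among 20 genes, with a median contrast of 1.09. Of all genes tested, 1.55% were at a peak and 6.35% were higher in the contrast. Itga2b, the platelet fibrinogen receptor subunit (chromosome 11, 102453297 to 102470122), read 27.1, 25, 27.6 and 28.3 CPM at E10.5, 61.9, 64.4, 42.8 and 32.4 at E12.5, and 19.3, 13.4 and 11.4 at E14.5. The groups did not overlap and the contrast was 1.34 ± 0.17 (adjusted p = 5.2e-05, edgeR). Treml1, a receptor of platelet granules, and the glycoproteins Gp9, Gp5 and Gp6 had contrasts of 1.68, 1.55, 1.51 and 1.86. Gp5 overlapped E10.5, with 2.96 CPM in E12.5 replicate 4 beside 3.38 in E10.5 replicate 4. Pf4, platelet factor 4, passed the contrast at 1.19 and did not pass against E10.5 (adjusted p = 0.12, edgeR). The number of platelet genes at a peak was 5 without E10.5 replicate 2 or without replicate 3, and 4 without E12.5 replicate 1 or without replicate 2. It was 10 without E12.5 replicate 4, 7 without the 5 libraries that stand apart, and 2 with a filter of 10 CPM in 3 libraries, which tests fewer genes.

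The E12.5 libraries themselves differed in blood transcripts. Replicate 4 was the lowest of the 4 for 23 of the 23 red cell genes at a peak, with a median of 0.515 times the mean of the other 3, and for 7 of the 8 platelet genes, at 0.571 times. It was the lowest for 186 of all 292 genes at a peak (63.7%), beside 26.6% of all genes tested, and the median ratio was 0.794 over the class and 1.01 over all genes. Its globin share, 1.62%, was the lowest of the 4, the highest being 4.87%. The share was 0.910 to 1.58% at E10.5 and 0.511 to 1.62% at E14.5, so replicate 4 was level with the highest flank library. Red cell list genes other than globins summed to 6090 CPM in replicate 4, inside the E10.5 range of 5822 to 6918. This library also lacks the activated macrophage transcripts, and the part of that difference in the red cell result was not tested. Without replicate 4, 298 genes were at a peak, 260 of them the same, and 27 red cell genes were. Without all 5 libraries that stand apart, 308 genes were at a peak, 249 of them the same, and 21 red cell genes were.

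In 7 lists for connective tissue, cushions, cartilage, smooth muscle and epicardium, 13 of 134 genes tested were at a peak, or 9.70% beside 1.55% of all genes. Replicate 4 was the lowest E12.5 library for 2 of the 13, at a median of 0.956 times the others. Their median contrast was 0.61, and 2 were at least 2-fold above both flanks. The count was 8 without E14.5 replicate 2, 5 without E14.5 replicate 3, 11 without the 5 libraries that stand apart, 7 with library totals and 4 when a 1.5-fold difference from each flank was required.

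Of 22 cushion and valve genes, 4 were at a peak and 7 were higher in the contrast, beside 1.55 and 6.35% of all genes. Penk, which encodes the enkephalin precursor (chromosome 4, 4133531 to 4138819), read 0.221, 0.192, 0.451 and 0.498 CPM at E10.5, 8.53, 6.60, 8.83 and 5.65 at E12.5, and 2.70, 3.58 and 3.18 at E14.5. It was 21.8-fold and 2.35-fold above its flanks (contrast 2.84 ± 0.25, adjusted p = 2.9e-07, edgeR), and 14.3% of its exon bases overlap a gene on the other strand. Twist1, a transcription factor of cushion mesenchyme, read 35.9, 32.8, 49.8 and 47.6 CPM, then 69.1, 54.8, 61.0 and 43.2, then 29.3, 21.8 and 22.6. Replicate 4 of E12.5 fell inside the range of E10.5, and Twist1 was at a peak in 12 of 22 alternatives. Cadherin 11 (Cdh11), of migrating mesenchyme, read 120 to 161 CPM at E10.5, 227 to 272 at E12.5 and 165 to 206 at E14.5, without overlap. Snai1, a driver of epithelial to mesenchymal transition, had a contrast of 0.48. Periostin (Postn) was 4.27-fold higher than at E10.5 with no call against E14.5.

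Cartilage-type matrix genes, which valves also use, gave 2 peaks and 1 dip among 14. Col9a1, a chain of collagen IX (chromosome 1, 24177610 to 24252684), read 14.4 ± 1.48 CPM at E10.5 (SD, n = 4), 58.4, 49.9, 47.1 and 57.6 at E12.5, and 29.0, 17.4 and 13.9 at E14.5. Its contrast was 1.64 ± 0.19 (adjusted p = 3.3e-05, edgeR), and at E16.5 its mean was 6.92 CPM. Its partner chain Col9a3 had a contrast of 0.89. Chondromodulin (Cnmd), an inhibitor of vessel growth known from valves, went the other way, with 1.56 to 2.15 CPM at E10.5, 0.386 to 0.649 at E12.5 and 1.30 to 1.61 at E14.5.

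In the fibroblast list 10 of 16 genes were higher in the contrast, 0 were lower and 1 was at a peak. In the elastic fibre list 15 of 24 were higher, 1 was lower and 2 were at a peak. The same shares over all genes were 6.35, 1.58 and 1.55%. Pdgfra, the growth factor receptor of mesenchyme, was the fibroblast peak, at 70.6 to 82.3 CPM, 97.5 to 133 and 69.2 to 97.8. Its E12.5 replicate 3 overlapped E14.5, and it was at a peak in 13 of 22 alternatives. Elastin (Eln) read 15.7 to 30.3 CPM, 516 to 609 and 1233 to 1657. The elastic fibre protein Fbln5 and the collagen-binding Lum had contrasts of 2.46 and 2.14 without a call against E14.5. Loxl2, a cross-linking enzyme, and Efemp2, which assembles elastic fibres, were the peaks of the list at 0.35 each, Efemp2 in 9 of 22 alternatives. Thbs1, an adhesive matrix protein, had 123 to 151 CPM, 163 to 252 and 78.3 to 105, with a contrast of 1.01.

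In the epicardial list 2 of 20 genes were at a peak, 3 were higher in the contrast and 3 were lower, with a median of 0.09. Shares over all genes were 1.55, 6.35 and 1.58%. The lower ones of the list were Podxl, Krt8 and Aldh1a1, at -0.46, -0.70 and -1.01. Aldh1a2, which makes retinoic acid, read 22.7 to 34.4 CPM at E10.5, 42 to 56.8 at E12.5 and 31.1 to 35.8 at E14.5, and was at a peak in 14 of 22 alternatives. The keratin Krt19 had a contrast of 0.43, and its call was lost without E12.5 replicate 3, at an adjusted p of 0.067 (edgeR). Its mean was higher at E9.5, at 64.7 CPM, than at E12.5, at 55.9. In the smooth muscle list 5 of 19 genes were higher and 3 were lower, Lmod1, Abcc9 and Myocd at -0.74, -0.46 and -0.43. Calponin (Cnn1), also a member of the early contractile list, was its single peak. It read 241 to 262 CPM, 318 to 332 and 218 to 230, a difference of 1.28-fold and 1.44-fold with little spread (adjusted p = 1.3e-05, edgeR). At E9.5 Cnn1 read 290 to 329 CPM, which overlaps E12.5.

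In 2 further peaks E12.5 replicate 4 was not the lowest. Myostatin (Mstn), a ligand that restrains muscle growth (chromosome 1, 53061640 to 53068079), read 1.26, 0.890, 0.795 and 1.05 CPM at E10.5, 13.2, 13.8, 10.3 and 14.9 at E12.5, and 5.4, 4.0 and 2.83 at E14.5. It was 13-fold and 3.19-fold above its flanks (contrast 2.69 ± 0.19, adjusted p = 3.0e-08, edgeR), and its mean was 1.06 CPM at E16.5. Iigp1, an interferon-inducible GTPase, read 0.674 to 1.51 CPM, 19.9 to 22.2 and 8.29 ± 1.87 (SD, n = 3). Against E14.5 its adjusted p was 0.044 (edgeR), and it was at a peak in 10 of 22 alternatives. Of 20 interferon response genes, 2 were higher in the contrast and 0 at a peak, beside 6.35 and 1.55% of all genes. Mx1 and Rsad2, classical members of that response, did not pass, at 0.91 and 1.34.

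Another 6 peaks were named after their values were seen. Gdf6, a bone morphogenetic protein, read 5.94 to 9.81 CPM at E10.5, 18.3 to 24.3 at E12.5 and 7.85 to 10.1 at E14.5. The Wnt ligand Wnt9b read 2.07 to 3.54, 9.73 to 10.7 and 2.86 to 4.34, and Notum, a secreted enzyme that inactivates Wnt ligands, 0.398 to 1.02, 4.43 to 5.48 and 1.90 to 2.80. None of these overlapped a flank, and 29.4% of the exon bases of Notum overlap its antisense gene. The chemokine scavenger Ackr3, the matrix protein Tgfbi and Papss2, which makes the sulphate donor for matrix sugars, had contrasts of 1.37, 1.03 and 0.95.

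Immediate early genes, which respond within minutes to growth factors, strain or handling, gave 4 peaks and 11 positive contrasts among 24. Their median contrast was 0.31, and the shares over all genes were 1.55% at a peak and 6.35% higher. Connective tissue growth factor (Ccn2) read 36.0 to 52.8 CPM, 98.1 to 121 and 54.1 to 75, without overlap (contrast 1.07 ± 0.10, adjusted p = 1.1e-06, edgeR). Its relative Ccn1, the cytokine inhibitor Socs3 and the transcription factor Jun had contrasts of 0.65, 0.86 and 0.40. Ier3, Klf4 and Zfp36 passed the contrast at 0.91, 0.54 and 0.48 but were not at a peak. Fos and Egr1 were among the 13 members that did not pass, with contrasts of 0.32 and 0.11. Of 20 heat shock genes, Trib3 and Hspa1a were at a peak, Hspa1a in 12 of 21 alternatives and with reads that may be shared with Hspa1b.

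Single peaks stood in several other lists. Cdkn2b, an inhibitor of cyclin-dependent kinases, read 0.265 to 0.630 CPM, 0.784 to 1.45 and 0.498 to 0.685 and was at a peak in 10 of 21 alternatives. Fgfr2, a receptor of epicardial growth signals, Nnat, an imprinted gene, and Cited1, a transcriptional co-regulator of trabecular muscle, had contrasts of 0.46, 0.50 and 0.70. The mitochondrial carrier Ucp2 was 1.89-fold and 1.65-fold above its flanks. Thyroglobulin (Tg) passed at 0.37 and was at a peak in 6 of 21 alternatives.

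The cardiomyocyte and cell division lists held no gene at a peak. Over all genes tested, 1.55% were at a peak, 6.35% were higher and 1.58% were lower in the contrast. At such shares a list of this size can hold 0 peaks, so the 0 says little about muscle or cell division. Of 20 cardiomyocyte genes, 1 was higher in the contrast, 0 were lower and 0 at a peak, with a median contrast of 0.10. DNA replication (32 genes), mitosis (28), mevalonate and cholesterol synthesis (26), autonomic neuron (22) and hypoxia response genes (22) had 0 genes higher, and only DNA replication had a lower one, 1 gene. Endothelial, coronary and resident macrophage lists had 3 higher each, of 20, 18 and 19, and 0 at a peak. Granulocyte (14 genes tested), lymphoid (5) and activated macrophage genes (8) had 0 higher and 0 lower, by edgeR's quasi-likelihood test. The libraries that stand apart lack the activated macrophage transcripts, whose sum ran from 2.75 to 676 CPM within E12.5 and from 0.603 to 550 within E10.5. With such a spread the test could hardly call them, so their 0 is not informative.

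**Figure D4:**
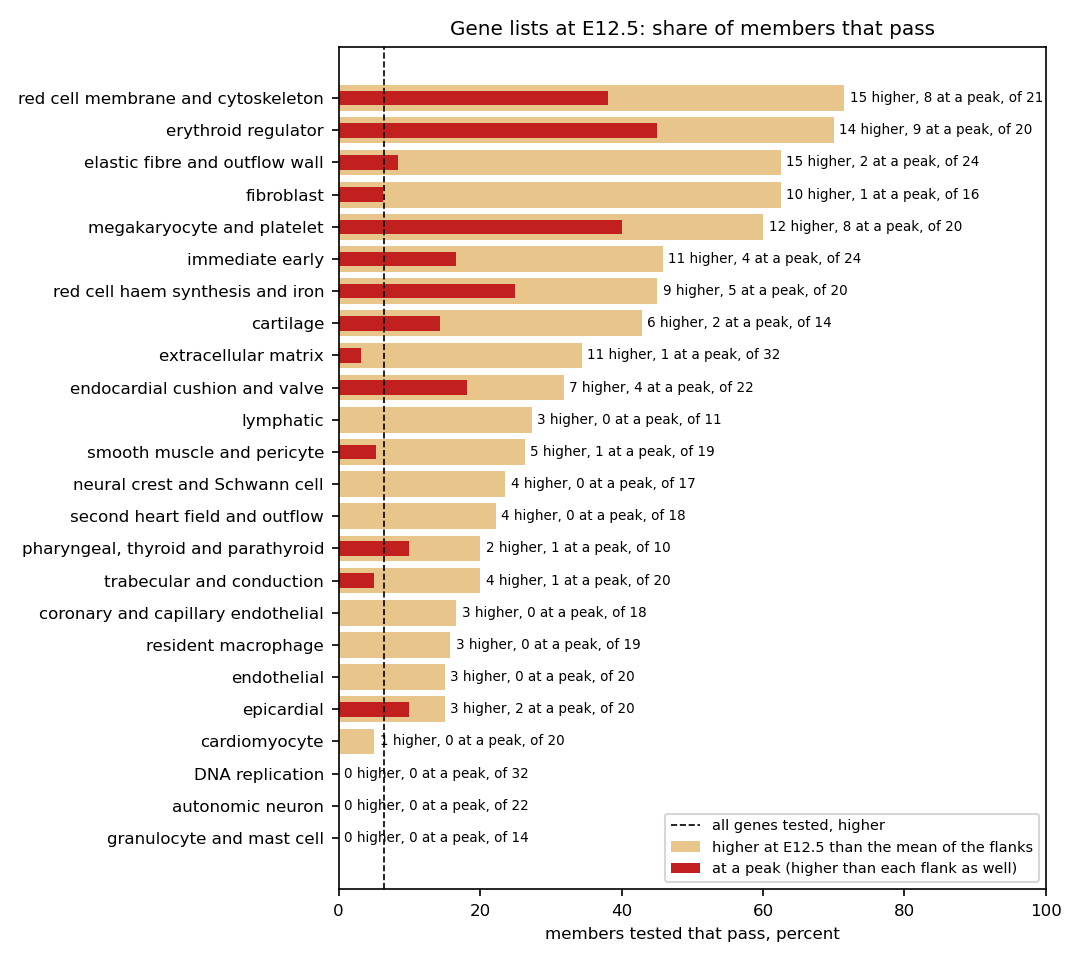
Share of tested members, in percent, that were higher at E12.5 than the mean of the flanks (pale bars) and at a peak (red bars) in 24 gene lists, with counts beside each bar. The dashed line is the share over all genes, 6.35%. Red cell and platelet lists have both long pale and long red bars, resident macrophage and granulocyte lists no red bar, and the elastic fibre and fibroblast lists a long pale bar with a short red one.

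Dips were fewer and shallower than peaks. The median contrast of the 44 was -0.56, 9 were at least 2-fold below both flanks, and 33 had no overlap with either. Without the 5 libraries that stand apart 41 genes were at a dip, of which 17 were among the 44, and the count was 26 without E12.5 replicate 3 and 24 without E14.5 replicate 2. Replicate 4 was the lowest E12.5 library for 7 of the 44, at a median of 1.02 times the others. All 44 had a higher mean at E16.5 than at E12.5, as had 9033 of all 18885 genes.

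The protocadherin Pcdh1 was at a dip with no overlap. It read 21.5 ± 1.29 CPM at E10.5 (SD, n = 4), 14.8, 16, 15 and 15 at E12.5, and 24.9, 26.3 and 29.2 at E14.5 (contrast -0.66 ± 0.07, adjusted p = 4.3e-06, edgeR). Tmem255a (chromosome X, 38196573 to 38252439) read 32.2, 44.0, 23.0 and 23.2 CPM, then 14, 17.1, 16.4 and 16.6, then 31.7, 28.6 and 36.1. It was at 0.524 times its E10.5 and 0.499 times its E14.5 level, and 10.6% of its exon bases overlap Zbtb33 on the other strand. Ablim3, an actin-binding LIM protein, read 5.05 to 6.81 CPM, 3.85 to 4.65 and 7.58 to 11.8, and reached a mean of 30.2 CPM at E16.5.

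Acsl1, which activates long-chain fatty acids (chromosome 8, 46471037 to 46536051), read 45.7, 49.0, 49.5 and 47.2 CPM, then 39.7, 39.4, 35.0 and 39.9, then 62.1, 64.9 and 72.7, and its mean at E16.5 was 205 CPM. It was the one dip among 27 fatty acid oxidation genes, which also held 1 peak, Ucp2. Dgat2, of triglyceride synthesis, and Plin5, a lipid droplet protein, were named after their values were seen and were at a dip in 9 of 22 and 11 of 21 alternatives.

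Other dips named by the rule were small in size. Car14, a carbonic anhydrase, Ammecr1, Tmem245, the sodium channel Scn10a and the zinc finger gene Zfp169 had contrasts of -0.39, -0.40, -0.45, -0.53 and -0.46. Scn10a was at a dip in 13 of 21 alternatives and Zfp169 in 14 of 21, and the contrast of Zfp169 itself had an adjusted p of 0.093 (edgeR) without the 5 libraries that stand apart. Named after their values were seen, the amine oxidase Aoc3 read 2.54 to 3.99 CPM, 0.976 to 1.81 and 7.44 to 12.1, with a contrast of -2.13 ± 0.22. Zbtb16, a zinc finger repressor, read 2.70 to 3.68, 1.51 to 1.89 and 2.42 to 5.29. Gli1, the readout gene of hedgehog signalling, read 1.30 to 1.89, 0.475 to 0.892 and 1.16 to 1.48, and was at a dip in 12 of 21 alternatives. The growth factor Fgf18, the vessel ligand Angpt2, the Notch ligand Jag2, the laminin receptor subunit Itga7 and the cytokine receptor Lifr had contrasts of -1.02, -0.71, -0.49, -1.07 and -0.25. Itga7 was at a dip in 8 of 22 alternatives, Lifr in 15 of 22 and Jag2 in 18 of 22. Without the 5 libraries that stand apart neither Itga7 nor Lifr was at a dip. The contrast of Lifr itself then had an adjusted p of 0.065 (edgeR).

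**Figure D5:**
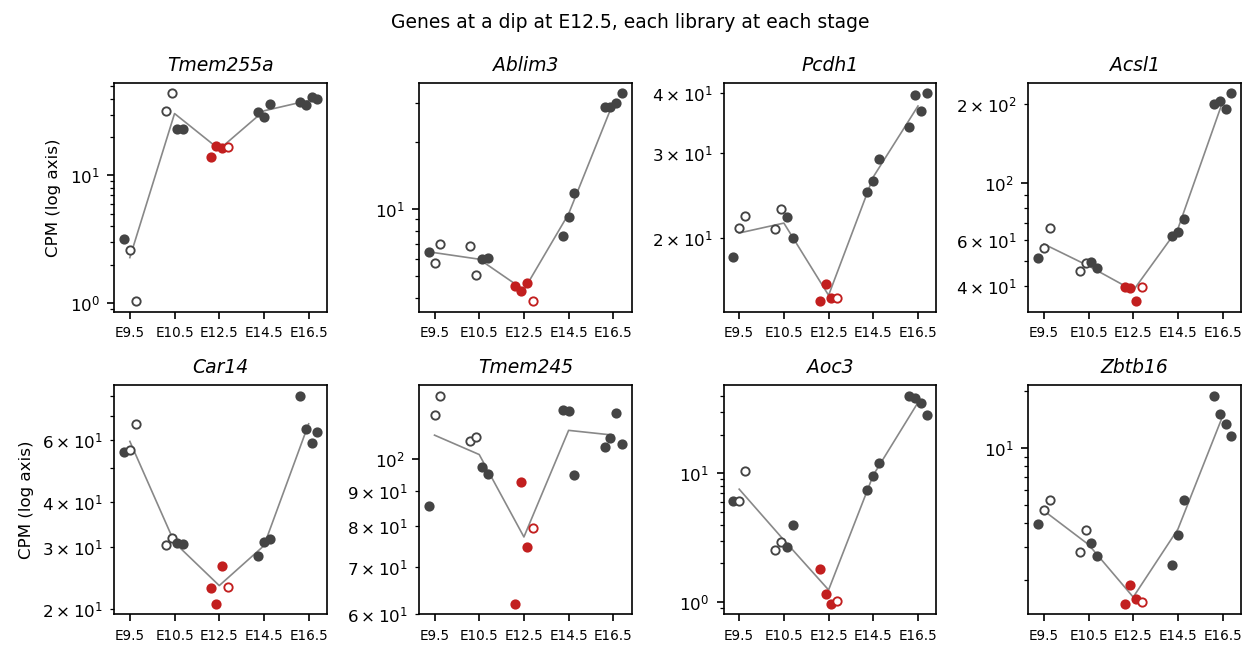
CPM (log axis) of 8 genes at a dip in each library at each stage, E12.5 in red, open points for the 5 libraries that stand apart, lines through stage means. Acsl1, Ablim3, Pcdh1, Aoc3, Car14 and Zbtb16 were at their highest stage mean at E16.5, while Tmem245 at E16.5 was near its E10.5 and E14.5 levels.

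Some of these genes share exon bases with a gene on the other strand, and without a stated strand setting their reads cannot be told apart. The shared part was 12.9% for Alas2, 9.91% for Acsl1, 23.2% for Ccn2, 17.5% for Car14, 10.6% for Adamts8, 7.28% for Jun, 6.07% for Col9a3, 5.57% for Loxl2 and 5.31% for Gli1.

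The stages outside the comparison placed most peaks at E12.5 as well. The E12.5 mean was above the E9.5 and E16.5 means for 279 of the 292, beside 3717 of all 18885 genes. A level above both flanks is part of the peak rule and was not asked of all genes. For the 292, every E12.5 library was above every E9.5 library in 262 genes, beside 4660 of all 18885. Against E16.5 the same held in 249, beside 4220 of all genes. The E14.5 mean was below the E10.5 mean for 181 and above it for 111, and in 7 the E16.5 mean exceeded that of E12.5. Among these was Alas2, with a mean of 316 CPM at E16.5. Of the 44 dips, 41 had their lowest stage mean at E12.5. Over all 18885 genes, 3201 had an E12.5 mean below those of E9.5 and E16.5. A level below both flanks is likewise part of the dip rule.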

How the data were processed

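RNA sequencing of mouse embryonic hearts was used, 18 libraries of which 11 enter the comparison. The authors deposited whole-number read counts per Ensembl gene for each library, not normalized. Per the submitters' processing notes, the tools were STAR 2.5.2b, Trimmomatic 0.36, Subread 1.5.2 and featureCounts, on GRCm38 (mm10). The strand setting is not given in the sources used here, so reads of overlapping and near-identical genes may be shared.

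Of 49315 identifiers, 48970 had a symbol. The rest held 0.0238 to 0.0388% of counts. Total counts per library were 30744015 to 45646538, and floors cover counting error only. Within stages all 15 pairs of libraries were further apart than counting error, at 6.06 to 79.8 for chi-square over its degrees of freedom.

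With edgeR 4.0.16 (R 4.3.3), filterByExpr by stage left 18885 genes. A robust quasi-likelihood model with stage as its term and TMM scaling was fitted to all 18 libraries, so stages share the estimate of spread. P-values were adjusted over all genes by Benjamini-Hochberg, threshold 0.05. TMM-scaled sizes give the CPM of single genes, and marker sums and shares use library totals.

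Genes were named by rule: the 10 largest peaks and dips, and the 10 largest peaks outside blood and immune lists, with at least 5 CPM and no overlap, leaving out mitochondrial, ribosomal protein, predicted, RIKEN-named and non-coding genes; up to 3 members at a peak or dip per list; all globins; and 3 genes per direction that pass the contrast only. Others were added after their values were seen. Some genes so chosen are not reported here. Among these are list members not at a peak or dip, and members beyond the first 3 of a list. The comparison, the 48 lists and the 5 libraries left out in one alternative were chosen with earlier results of these data known. Promoter windows are from RefSeq (GRCm38.p6) and coordinates from GENCODE M21. Alternatives covered scaling, filters, DESeq2 1.42.0, limma-voom (limma 3.58.1), the libraries fitted, a replicate block, each library left out and a 1.5-fold minimum.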

Additional observations from a re-analysis of the deposited data

Results flagged for a closer look

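Among the named genes, 238 groups of 4 libraries (E10.5 and E12.5) were screened for a library far from the other 3, by Dixon's gap criterion at the 95% level. Chance alone gives about 1 in 20, and 21 groups (8.82%) were found. At E10.5, Hbb-bh2 was highest in replicate 1 at 1.08 CPM, the others being 0.813 to 0.842. Krt19 was lowest in replicate 1 at 39 CPM, the others being 45 to 45.8. Gm2061 was highest in replicate 3 at 4.03 CPM, the others being 2.87 to 3.07. Itga7 was highest in replicate 3 at 3.92 CPM, the others being 2.76 to 2.86. Klf1 was highest in replicate 3 at 29.6 CPM, the others being 20.6 to 22. Plek2 was highest in replicate 3 at 6.36 CPM, the others being 5.17 to 5.35. Slfn14 was highest in replicate 3 at 1.48 CPM, the others being 1.15 to 1.2. Tal1 was highest in replicate 3 at 72.5 CPM, the others being 59.7 to 60.8. Gp5 was highest in replicate 4 at 3.38 CPM, the others being 2.03 to 2.12. Tmem56 was lowest in replicate 4 at 19.6 CPM, the others being 21.6 to 22. Ube2o was lowest in replicate 4 at 69.9 CPM, the others being 74.5 to 75.2. At E12.5, Notum was highest in replicate 1 at 5.48 CPM, the others being 4.43 to 4.59. Lin28a was highest in replicate 2 at 2.6 CPM, the others being 1.73 to 1.82. Acsl1 was lowest in replicate 3 at 35 CPM, the others being 39.4 to 39.9. Gm2061 was highest in replicate 3 at 22.3 CPM, the others being 3.25 to 6.42. Klf1 was highest in replicate 3 at 31.3 CPM, the others being 6.76 to 9.62. Krt19 was highest in replicate 3 at 68.4 CPM, the others being 50.9 to 53. Krt8 was highest in replicate 3 at 20.2 CPM, the others being 13.7 to 14.7. Hbb-bh2 was lowest in replicate 4 at 0.264 CPM, the others being 0.757 to 0.795. Jag2 was highest in replicate 4 at 24.4 CPM, the others being 16.9 to 18.2. Jun was highest in replicate 4 at 138 CPM, the others being 103 to 109. E12.5 replicate 3 held the highest Klf1 and Gm2061 levels of its stage, and E10.5 replicate 3 did so for both genes at its own stage.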

How the results depend on the processing

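Across the 22 alternatives that refit the data, none of the 119 named genes changed the sign of its contrast. Of 2592 values, 2495 kept their side of the threshold, 96 lost the call and 1 gained it (Hbb-bs, 1.16, with the 5 libraries as a term). Of 92 named genes at a peak or dip, 50 kept their class in each of these refits that held them, the 1.5-fold minimum not counted, and 72 kept it without the 5 libraries. The number of genes higher was 1510 with DESeq2, 1696 with the 5 libraries as a term and 880 to 1149 with 1 library left out. Genes lower (298) were less stable. They numbered 567 with library totals only, 499 with DESeq2, 480 with only the 11 libraries, 655 with the 5 libraries as a term, and 147 to 376 with 1 library left out, 154 without E12.5 replicate 1 and 147 without E12.5 replicate 3. Peaks (292) numbered 213 to 298 with 1 library left out and 167 at a 1.5-fold minimum. Dips (44) numbered 73 with library totals only, 28 with no filter, 83 with the 5 libraries as a term, 16 at a 1.5-fold minimum and 24 to 41 with 1 library left out. The cause of these shifts was not tested, except that the 1.5-fold minimum removes genes by construction. Platelet peaks fell from 8 to 2 with a filter of 10 CPM in 3 libraries, which tests fewer genes, and connective tissue peaks numbered 8 with no filter.

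With the replicate number as a block, 1119 genes were higher, 268 lower, 257 at a peak and 38 at a dip. Libraries share only a number: of 10 same-number pairs across stages, deviations correlated at -0.64 to 0.33 with 4 over 0.1, and 3 of 11 libraries correlated best with their own number. The strongest positive correlations of E12.5 replicate 4, which stands apart, were with E10.5 replicates 1 and 2, which do so too, at 0.66 each. Levels near the floor, as for Tspo2 and Hbb-bh2, carry the largest counting error.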

Other observations

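Some further peaks are in none of the lists and were named after their values were seen. The non-coding gene 4930544L04Rik had 8 to 13 counts in each E10.5 library, 138 to 317 at E12.5 and 0 to 10 at E14.5, which is 3.7 to 7.2 CPM at E12.5. Il1bos, an antisense gene, read 0.472 to 0.742 CPM at E10.5, 6.36, 4.89, 9.94 and 2.59 at E12.5 and 0.0311 to 0.313 at E14.5. Of the lesser-known globin genes, Hbb-bh0 read 0.241 to 0.551 CPM, then 10.8, 4.81, 4.27 and 1.66, then 0.343 to 1.78, and Hbq1b had a contrast of 2.11. All 4 were at a peak, and reads of Hbb-bh0 and Hbq1b may be shared with their relatives. In each of the 4, E12.5 replicate 4 was the lowest library of its stage.

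In the list of Lin28 and oncofetal genes 3 of 14 were lower in the contrast and 0 at a dip. Of all genes tested, 1.58% were lower and 0.233% at a dip. The RNA-binding Lin28a read 13.8 to 21.4 CPM at E10.5, 1.73 to 2.60 at E12.5 and 0.592 to 1.18 at E14.5, and the transcription factor Sall4 had a contrast of -0.51. The outflow tract growth factor Fgf8 read 0.729 to 2.01, 0.114 to 0.162 and 0.179 to 0.623 CPM, and did not pass against E14.5 (adjusted p = 0.14, edgeR). Of the epicardial list, Krt8 and the retinoic acid enzyme Aldh1a1 had contrasts of -0.70 and -1.01, the latter called in 9 of 22 alternatives. Ribosome biogenesis had 3 genes lower of 22, and 0 higher, beside 1.58 and 6.35% of all genes.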
